A study of Homo sapiens with 8 samples.

Results

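The collagen genes were taken as every gene name on the array made of COL, a number, A and a number, which gave 44 genes with 64 probes among 43317 gene names and 58201 probes. Agilent Human GE 60K arrays were hybridised with RNA of 5 human cancer cell lines, and each of the 8 arrays held mock cells in Cy3 and transfected cells of the same line in Cy5. Mock cells received no transfection. PC3 prostate cancer cells had 2 arrays, with si-PIR-2 and with si-PIR-3, both siRNAs against PIR. SK-MES-1 lung squamous cell carcinoma cells had 2 arrays, with miR-144-5p and with miR-144-3p. PANC1 pancreatic cancer cells had 2 arrays, with miR-130-5p and with miR-130-3p. The miRNA miR-204-5p was transfected into SW1990 pancreatic cancer cells on 1 array and into MDA-MB-231 breast cancer cells on 1 array. All transfections used the lipid reagent Lipofectamine RNAiMAX, and whether the mock cells received the reagent is not stated. Each line is a single established culture, and the labels do not say that the mock channels of a line came from separate cultures, so p-values measure the spread between these arrays, which may be technical. Dyes were not swapped, so a dye effect and a transfection effect cannot be told apart.

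Collagens are secreted or membrane-bound proteins in which 3 chains wind around each other into a triple helix. Fibrillar collagens build the banded fibres of connective tissue, type IV collagens build the sheet of the basement membrane, and type VI collagens build beaded filaments. FACIT collagens sit on fibrils, short chain collagens form networks, type VII anchors the basement membrane, transmembrane collagens span the plasma membrane, and COL18A1, a multiplexin of basement membranes, is the source of endostatin. Epithelia, from which carcinomas arise, rest on basement membrane collagens, while most fibrillar collagen of a tumour is made by fibroblasts.

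The transfected miRNAs that the RefSeq table named without doubt are shown first, with the seed (bases 2 to 8) in capitals, because they were the transfected agents on 4 of the 8 arrays. The labels do not say which miR-130 was used, and its sequence was left out.
miR-144-5p: gGAUAUCAucauauacuguaag
miR-144-3p: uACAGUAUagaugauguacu
miR-204-5p: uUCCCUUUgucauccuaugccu
The 3 seeds differ from each other.

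The type IV chains are encoded in pairs of genes that face away from each other, and the bases before the start of the gene on the plus strand are shown because both members of a pair start from the same stretch. They come from RefSeq on GRCh38.p14, and capitals mark CCAAT and GGGCGG on either strand. Between the starts of COL4A1 (minus strand) and COL4A2 (plus strand) lie 126 bases (chr13:110307158-110307283), all shown. Between COL4A4 and COL4A3 lie 418 bases and between COL4A6 and COL4A5 lie 379, of which the 250 next to COL4A3 (chr2:227164374-227164623) and to COL4A5 (chrX:108439588-108439837) are shown.
COL4A1/COL4A2: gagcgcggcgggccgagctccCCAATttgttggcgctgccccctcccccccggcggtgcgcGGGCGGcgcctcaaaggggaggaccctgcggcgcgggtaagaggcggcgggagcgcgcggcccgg
COL4A4/COL4A3: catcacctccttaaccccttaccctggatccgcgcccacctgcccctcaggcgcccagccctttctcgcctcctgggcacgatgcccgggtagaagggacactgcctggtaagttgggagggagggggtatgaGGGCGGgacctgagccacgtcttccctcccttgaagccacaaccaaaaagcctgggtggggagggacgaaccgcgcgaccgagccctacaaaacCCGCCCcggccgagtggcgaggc
COL4A6/COL4A5: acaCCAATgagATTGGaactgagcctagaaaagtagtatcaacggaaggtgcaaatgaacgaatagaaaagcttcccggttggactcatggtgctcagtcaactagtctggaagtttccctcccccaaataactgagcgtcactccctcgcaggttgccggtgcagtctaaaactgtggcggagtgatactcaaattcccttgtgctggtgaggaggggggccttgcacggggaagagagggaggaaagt
The stretch of COL4A1 and COL4A2 held 1 CCAAT and 1 GGGCGG, that of COL4A3 held 2 GGGCGG and no CCAAT, and that of COL4A5 held 2 CCAAT and no GGGCGG. None of the 3 held TATAAA on either strand. In windows from 250 bases before to 50 bases after a start, CCAAT or its complement was found in 14 of 44 windows of 32 collagen genes (31.8%) against 34.6% of 35116 windows of all genes. GGGCGG was found in 24 of the 44 (54.5%) against 45.0%, and TATAAA in 8 (18.2%) against 11.53%. The motifs do not overlap each other, and a match is a description of the letters only.

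Signal is called well above background where the scanner software called it so. It was reached in Cy3 by 41.4% to 46.4% of all probes per array and in Cy5 by 49.8% to 54.6%. No spot of the 8 arrays was saturated. The epithelial markers EPCAM, KRT8, KRT18 and KRT19 were well above background in all 5 mock lines, and CDH1 in PC3, SW1990 and MDA-MB-231. The defining markers of the labelled tissues were in part missing. Of the squamous markers, SK-MES-1 had only TP63 of TP63, KRT5 and DSG3, KLK3 was not well above background in PC3, and CFTR in neither pancreatic line. Of 6 fibroblast markers, 2 were well above background in PC3, 4 in SK-MES-1, 3 in SW1990, 2 in MDA-MB-231 and 2 in PANC1, DCN was in none, and the part of such signal in the collagen values was not tested. PIR, the target of the siRNAs, had log2 ratios of -5.46 with si-PIR-2 and -4.27 with si-PIR-3.

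In mock cells, 30 of the 44 collagen genes were well above background on every array of at least 1 line. The lines expressed 23 (PC3), 25 (SK-MES-1), 22 (SW1990), 26 (MDA-MB-231) and 19 (PANC1) of them. As shares these ran from 43.2% in PANC1 to 59.1% in MDA-MB-231, against 41.9% to 45.6% of all gene names. By class, 7 of 11 fibrillar genes, 5 of 6 type IV genes, 3 of 5 type VI genes, 7 of 10 FACIT genes, 3 of 3 short chain genes, 2 of 4 transmembrane genes and 1 of 2 multiplexins were expressed in at least 1 line. COL7A1, the anchoring fibril gene, was expressed in all 5. Neither channel of any array was well above background for COL11A1, COL15A1, COL19A1, COL25A1, COL5A3, COL6A5 and COL6A6. COL1A2, the partner chain of COL1A1 in type I collagen, and COL3A1, the chain of type III collagen, were not well above background in any mock line.

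The mock level is the log2 Cy3 signal after normexp background correction with an offset of 50 and quantile normalisation. The lowest mock level called well above background was 5.81 to 5.87, depending on the array, so the scale is compressed near its floor. The 2 mock channels of a line differed by a median of 0.06 in PC3, 0.03 in SK-MES-1 and 0.04 in PANC1 over the collagen probes expressed there. The largest such difference was 0.40, for COL1A1 in PANC1.

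The 5 lines differed in mock level at 38 of 42 collagen probes that were well above background on every array of at least 1 line (limma F test, adjusted p under 0.05). Of all 30618 probes tested in this way, 91.1% were called, so the collagen count is close to the background. SW1990 and MDA-MB-231 entered with 1 mock channel each, and the spread came from the lines with 2. A clear lead of 1 line, of at least 1 on the log2 scale over the next line, was found for 11 of the 42 collagen probes, against 6.42% of all probes. SK-MES-1 was the leading line for 9 of these 11, SW1990 for 1 and MDA-MB-231 for 1. Of all probes with such a lead, 26.1% were led by SK-MES-1. With the scanner's processed signal minus the 75th percentile, which has no offset, 23 of 42 probes had such a lead, against 21.2% of all 30618 probes. Among probes well above background on all 8 arrays it was 6 of 20, against 5.12% of all 19878.

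**Figure D1:**
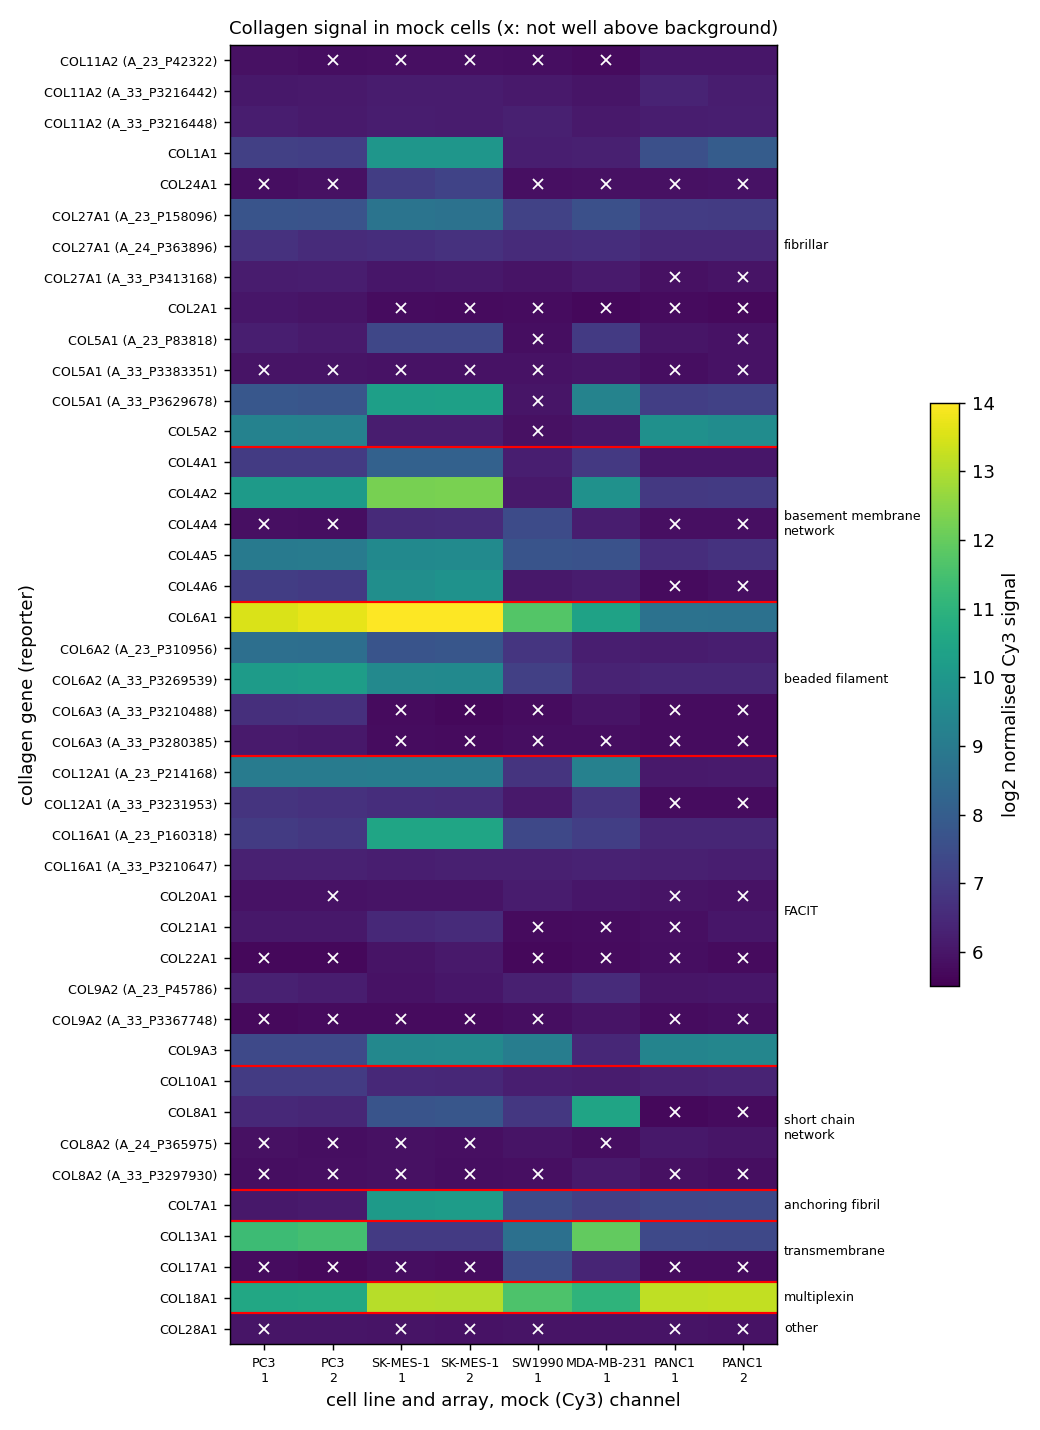
Log2 normalised Cy3 signal (colour) of the 42 collagen probes that entered the comparison of mock cells, with 1 column for each array and the classes divided by red lines, and a white cross where the signal was not well above background. The SK-MES-1 columns are the brightest for COL1A1, COL4A2, COL7A1 and COL16A1, and COL18A1 is bright in every column.

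Among the fibrillar genes, COL1A1, the alpha 1 chain of type I collagen, was highest in SK-MES-1. Its mock levels were 7.10 and 7.09 in PC3, 9.98 and 9.95 in SK-MES-1, 6.23 in SW1990, 6.26 in MDA-MB-231, and 7.56 and 7.96 in PANC1. The lead of SK-MES-1 over PANC1 was 2.21. The F test over the lines, which tests for any difference between them and not for the lead, gave an adjusted p of 2.14e-12. COL24A1, a minor fibrillar collagen, was well above background in mock cells of SK-MES-1 alone, at 7.05 and 7.20. It was at least 2.34-fold higher there than in PANC1 and at least 2.42-fold higher than in PC3, where the bound sets its mean against, on each array, the higher of the lowest signal called well above background and the probe's own signal. COL27A1, a cartilage fibrillar collagen, led in SK-MES-1 by 1.05 on probe A_23_P158096 (8.77 and 8.72, next PC3 at 7.71 and 7.67), whereas its probe A_24_P363896 ranged over 0.22 only between the lines.

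The chains of type V collagen, which starts fibrils of type I, did not share a line order. COL5A1 on probe A_33_P3629678 was highest in SK-MES-1 (10.31 and 10.33) and MDA-MB-231 (9.29), then PC3 (7.81 and 7.73) and PANC1 (7.07 and 7.13), and was not well above background in SW1990. COL5A2 was highest in PANC1 (9.75 and 9.63) and PC3 (9.25 and 9.23), and stood at 6.18 on both arrays of SK-MES-1 and at 6.02 in MDA-MB-231. COL5A2 too was not well above background in SW1990, where PANC1 exceeded it at least 13.9-fold.

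The 3 type IV pairs differed in how their members followed each other. COL4A2 was at 12.26 and 12.29 in SK-MES-1, 10.12 on both arrays of PC3, 9.79 in MDA-MB-231, 6.90 and 6.94 in PANC1, and 6.09 in SW1990. COL4A1, its partner in the common form of type IV collagen, was at 8.14 on both arrays of SK-MES-1, 6.97 on both of PC3, 6.92 in MDA-MB-231, 6.23 in SW1990, and 6.0 on both arrays of PANC1. The first 3 lines came in the same order for both genes, and PANC1 and SW1990 came in the opposite order below them. SK-MES-1 led by 2.15 for COL4A2 and by 1.17 for COL4A1.

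COL4A6 on probe A_23_P217379 was at 9.71 and 9.82 in SK-MES-1, 7.05 and 6.93 in PC3, 6.14 in MDA-MB-231 and 6.04 in SW1990, and not well above background in PANC1. No mock line had the other COL4A6 probe, A_33_P3262969, well above background on all its arrays. On A_23_P217379 the lead of SK-MES-1 over PC3 was 2.78, and SK-MES-1 was at least 14.9-fold above PANC1. COL4A5, which lies beside it on the X chromosome, was at 9.55 and 9.56 in SK-MES-1, 8.97 and 9.05 in PC3, 7.71 in SW1990, 7.65 in MDA-MB-231, and 6.61 and 6.74 in PANC1. SW1990 and MDA-MB-231 differed for COL4A5 by less than the 2 PC3 arrays did. COL4A4 was highest in SW1990 (7.44), followed by SK-MES-1 (6.50 and 6.53) and MDA-MB-231 (6.19), and COL4A3, the other gene of that pair, was not well above background in mock cells of any line.

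**Figure D2:**
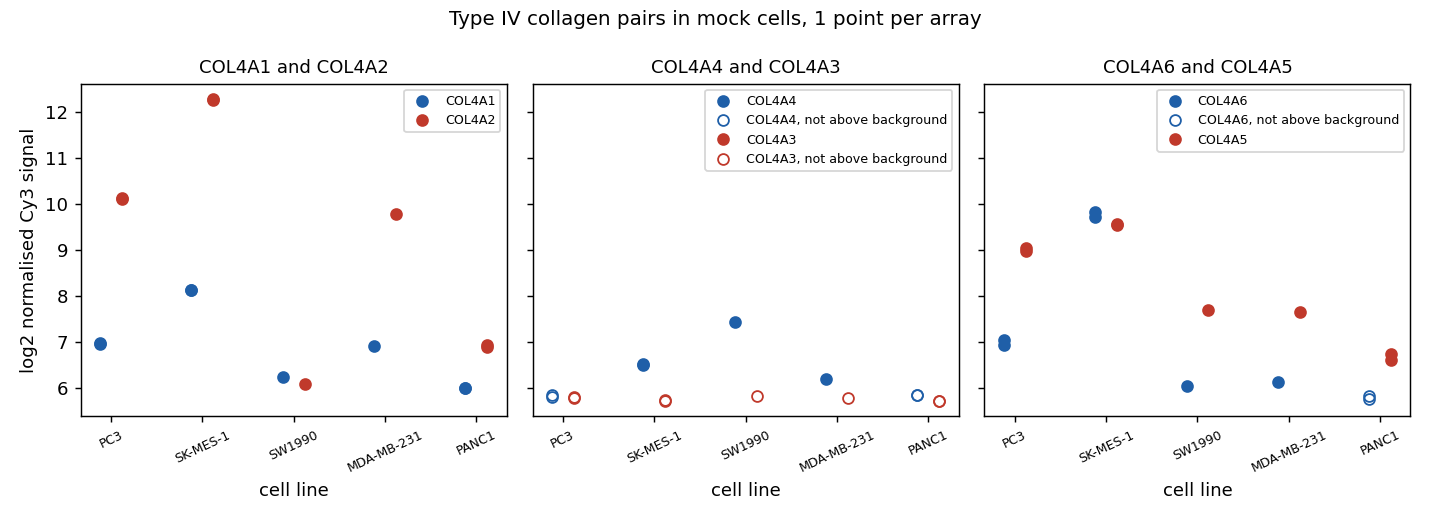
Log2 normalised Cy3 signal in mock cells for the 3 pairs of type IV genes, with 1 point for each array and open points where the signal was not well above background. COL4A1 with COL4A2 and COL4A6 with COL4A5 are highest in SK-MES-1, while COL4A4 is highest in SW1990 at 7.44 and all COL4A3 points are open. COL4A6 is shown on probe A_23_P217379, and its other probe is not drawn. Levels of different genes come from different probes and are not compared with each other.

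Type VI collagen is usually built from its alpha 1, alpha 2 and alpha 3 chains. COL6A3 was measurable in mock cells of PC3 on both of its probes (6.65 and 6.66 on A_33_P3210488) and in MDA-MB-231 on that probe (5.96). COL6A1 was at 13.52 and 13.68 in PC3, 14.02 and 13.98 in SK-MES-1, 11.73 in SW1990, 10.41 in MDA-MB-231, and 8.69 and 8.67 in PANC1, a range of 5.32. COL6A2, its neighbour on chromosome 21, was highest in PC3 (10.17 and 10.24 on A_33_P3269539), then SK-MES-1 (9.50 and 9.55), and lowest in MDA-MB-231 (6.34) and PANC1 (6.40 and 6.42). SK-MES-1 therefore had high COL6A1 and COL6A2 signal with COL6A3 not well above background.

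Among the FACIT genes, COL16A1 had the largest lead of the 42 probes, on A_23_P160318. It was at 10.50 and 10.49 in SK-MES-1, 7.36 in SW1990, 7.07 in MDA-MB-231, 6.98 and 6.86 in PC3, and 6.40 and 6.41 in PANC1. The lead was 3.14, and the F test for any difference between the lines gave an adjusted p of 4.02e-16. The other COL16A1 probe, A_33_P3210647, stayed between 6.20 and 6.31 on all 8 arrays and was not called (adjusted p = 0.301). COL9A3, a cartilage FACIT chain, was high in SK-MES-1 (9.48 and 9.50), PANC1 (9.33 and 9.39) and SW1990 (9.09), and low in MDA-MB-231 (6.46). COL12A1 on A_23_P214168 was between 9.04 and 9.25 in PC3, SK-MES-1 and MDA-MB-231, 6.79 in SW1990, and 6.08 and 6.13 in PANC1.

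COL7A1, the anchoring fibril collagen of the skin, led in SK-MES-1 by 2.74, with 10.14 and 10.21 there, 7.44 in SW1990, 7.30 and 7.34 in PANC1, 7.12 in MDA-MB-231, and 6.05 and 6.12 in PC3. COL8A1, a short chain collagen of vessel walls, led in MDA-MB-231 by 2.72, at 10.46 against 7.71 and 7.78 in SK-MES-1, and was at least 24.2-fold above PANC1. COL13A1, a transmembrane collagen, was high in MDA-MB-231 (11.96) and PC3 (11.34 and 11.46), and low in SK-MES-1 (6.94 on both arrays). COL17A1, the hemidesmosome collagen, was well above background in SW1990 (7.50) and MDA-MB-231 (6.37) and in no other mock line, with a lead of 1.13. COL18A1 was between 10.59 and 13.21 on all 8 arrays, highest in PANC1 and SK-MES-1.

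The probes with the smallest range among those well above background on all 8 arrays were A_33_P3210647 of COL16A1 (0.09), A_33_P3216448 and A_33_P3216442 of COL11A2 (0.15 and 0.29), A_24_P363896 of COL27A1 (0.22) and A_23_P45786 of COL9A2 (0.58). All of them lay below 6.8. Probes of 1 gene often differed. Of 15 genes with several probes, the number of mock lines that expressed the gene differed between probes for 10, and on at least 1 array ratios measured in both channels differed by 1 or more for 3 genes, COL5A1, COL11A2 and COL27A1.

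The ratio is the scanner's own log ratio of transfected over mock cells on the log2 scale, and it is read only where at least 1 channel was well above background. No collagen probe was called in any comparison of ratios after adjustment over all probes. Against mock, si-PIR in PC3 gave 0 calls among 38 collagen probes (0% of 29370 probes were called) and miR-204-5p in SW1990 and MDA-MB-231 gave 0 among 34 (0% of 26650). With 2 arrays each, these 2 tests called no probe at all. PIR itself, at -5.46 and -4.27 with its siRNAs, was not called. A count of 0 in them therefore cannot show that collagens were unchanged. The mean over the 5 lines gave 0 among 26 (0.178% of 24109), si-PIR arrays against the 6 miRNA arrays gave 0 among 26 (0.00415%), and miR-204-5p arrays against the 6 others gave 0 among 26 (0.174%). At an unadjusted p under 0.05 in the limma fits, the 5 comparisons had 8, 8, 10, 5 and 3 collagen probes. Of all probes, 10.5%, 18.6%, 20.0%, 7.21% and 8.11% passed that unadjusted limit. The comparisons share arrays and are not independent of each other. The si-PIR arrays were the only PC3 arrays, and the miR-204-5p arrays the only ones of SW1990 and MDA-MB-231. In their comparisons with other arrays, cell line and transfected RNA therefore cannot be told apart. Each array was also centred on its median after normexp, in place of the scanner's normalisation. This moved the median ratio of all probes to 0.30, 0.30 and 0.34 in the first 3 comparisons. It called 6 of 38, 10 of 34 and 18 of 26 collagen probes, all of them higher in transfected cells. Of all probes, 6101 of 29370, 13499 of 26650 and 17092 of 24109 were called, each a larger share than among the collagen probes.

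The collagen probes leaned above the other probes on most arrays. Their median log2 ratio was 0.27 with si-PIR-2, 0.12 with si-PIR-3, 0.20 with miR-144-5p, 0.15 with miR-144-3p, 0.06 and 0.15 with miR-204-5p in SW1990 and MDA-MB-231, 0.05 with miR-130-5p and 0.56 with miR-130-3p. The medians of all probes were between 0.02 and 0.09, and the collagen median exceeded that of all probes on every array but miR-130-5p. On every array more collagen probes were well above background in Cy5 than in Cy3. The limit of 1 channel therefore admits probes through the transfected channel. With both channels well above background, the collagen medians in the same order were 0.27, 0.10, 0.05, 0.08, 0.06, 0.13, 0.04 and 0.27. The medians of all such probes were between -0.02 and 0.02. The part of the filter in the lean was not tested. Over the 5 lines, 23 of the 26 collagen probes tested had a mean ratio above 0, with a median of 0.15 against 0.02 for all probes. The share of all probes with a mean above 0 was not counted. The 3 probes below 0, of COL13A1, COL9A2 and COL18A1, were among the 20 with both channels well above background on every array.

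**Figure D3:**
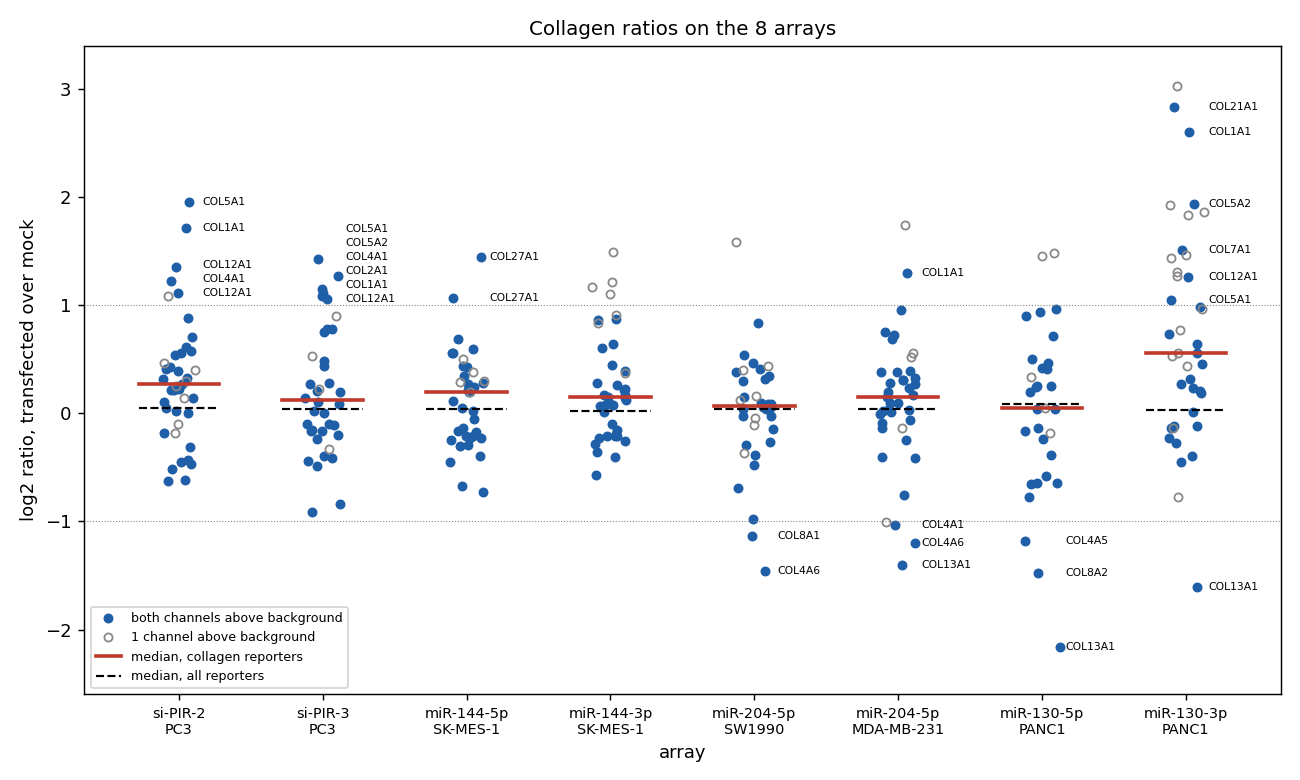
Log2 ratio of transfected over mock cells for each collagen probe on each array, filled where both channels and open where 1 channel was well above background, with the collagen median in red and the median of all probes dashed. Dotted lines mark 1 and -1, and probes past them in both channels are named. The miR-130-3p array has the most probes above 1 and the highest collagen median, 0.56.

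The miR-130-3p array of PANC1 held the most collagen probes past 1 on the log2 scale. There 14 of 40 were at least 1 higher in transfected cells, against 6.32% of all probes, and 1 was at least 1 lower, against 1.87%. With both channels well above background, 6 of 25 were higher, against 1.74% of all 24042 probes. On the miR-130-5p array of the same line, 2 of 31 were higher (7.96% of all probes) and 3 were lower (6.44%). Each is a single array, and no test was made of either.

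With si-PIR-2, 6 of 41 collagen probes were at least 1 higher (6.04% of all probes) and 0 were lower (2.93%). With si-PIR-3, 6 of 38 were higher (3.99%) and 0 lower (2.4%). With miR-144-5p, 2 of 38 were higher (4.2%) and 0 lower (1.88%), and with miR-144-3p, 4 of 39 were higher (4.58%) and 0 lower (1.03%). With miR-204-5p in SW1990, 1 of 36 was higher (4.67%) and 2 were lower (1.9%). With miR-204-5p in MDA-MB-231, 2 of 39 were higher (3.54%) and 4 were lower (1.84%). Where both channels had to be well above background, the numbers higher were 5, 6, 2, 0, 0 and 1 in the same order. The share of all probes was not counted for that limit on these arrays. After normexp with an offset of 50 and loess, which shrinks the ratios of dim spots, the probes past 1 in either direction numbered 3, 2, 1, 0, 0, 1, 1 and 4, with the arrays in the order of the plot. The share of all probes past 1 was not counted after loess.

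COL5A1, the alpha 1 chain of type V collagen, had the highest ratio of any collagen with both channels above background on both si-PIR arrays. On A_33_P3629678 (chr9:137736327-137736386 on hg19, plus strand) its ratios were 1.96 with si-PIR-2, 1.42 with si-PIR-3, 0.69 and 0.39 with miR-144-5p and miR-144-3p, -0.37 and 0.96 with miR-204-5p in SW1990 and MDA-MB-231, and 0.94 and 1.05 with miR-130-5p and miR-130-3p. The mean of the si-PIR arrays was 1.69 ± 0.38 (SD, n = 2 arrays), which did not pass the test (limma, adjusted p = 0.384, unadjusted p = 0.0017). The SW1990 value is read from the transfected channel alone. On 7 of 8 arrays the value was above 0.

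On both si-PIR arrays the other COL5A1 probes gave smaller values. A_23_P83818 (chr9:137734063-137734122), which names the same transcript, had 0.58 and 0.78 with the siRNAs, -0.21 with both strands of miR-144, 0.38 with miR-204-5p in MDA-MB-231, and 0.25 and 0.44 with miR-130-5p and miR-130-3p. A_33_P3383351 (chr9:137600825-137600884), which names another transcript, was well above background in Cy5 on all 8 arrays but in Cy3 only in MDA-MB-231, where its ratio was 0.28. Read from the transfected channel alone, it had 1.46 with miR-130-5p and 0.16 with miR-204-5p in SW1990. These 2 values lay above those of A_33_P3629678, and its values on the other arrays lay below. With si-PIR, A_23_P83818 had the sign of A_33_P3629678 with smaller values, and in SK-MES-1 these 2 probes had opposite signs. Exons and untranslated regions were not assigned on hg19.

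**Figure D4:**
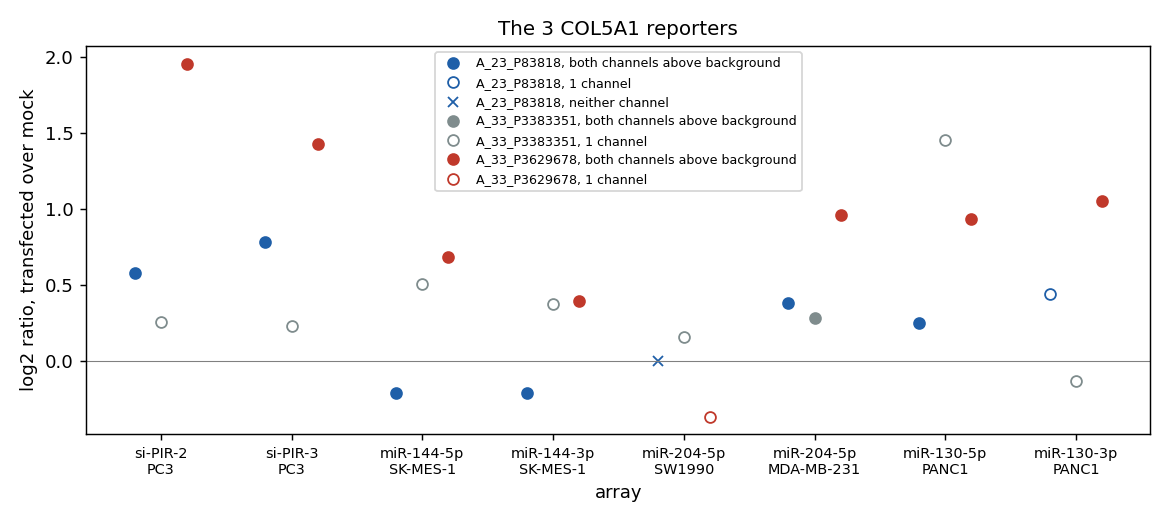
Log2 ratio of transfected over mock cells on each array for the 3 COL5A1 probes, filled where both channels, open where 1 channel and crossed where no channel was well above background. A_33_P3629678 lies above the other probes on both si-PIR arrays, at 1.96 and 1.42.

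Further collagens had high ratios on both si-PIR arrays. COL1A1 had 1.72 and 1.08 (mean 1.40 ± 0.45, SD, n = 2 arrays, limma adjusted p = 0.411), and COL4A1 had 1.22 and 1.15 (mean 1.19 ± 0.05, limma adjusted p = 0.397). COL12A1 had 1.35 and 0.78 on A_23_P214168 and 1.12 and 1.06 on A_33_P3231953. COL4A2 had 0.88 and 0.75. COL5A2 differed between the siRNAs, at 0.14 with si-PIR-2 and 1.27 with si-PIR-3, and COL6A1 stood at 0.70 and -0.24.

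The lowest si-PIR means with both channels well above background were those of COL9A3, at -0.45 and -0.49, COL13A1, at 0.05 and -0.84, and COL4A6 on A_23_P217379, at -0.61 and -0.00. The lowest single ratios were -0.63 for COL2A1 with si-PIR-2 and -0.91 for COL4A6 on A_33_P3262969 with si-PIR-3. COL2A1, the cartilage fibrillar collagen, had the opposite sign with si-PIR-3, at 1.11.

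With miR-204-5p, COL4A6, COL17A1 and COL4A1 had the lowest means among collagen probes that were well above background in both channels, and none passed the test. COL4A6 on A_23_P217379 had -1.46 in SW1990 and -1.20 in MDA-MB-231 (mean -1.33 ± 0.18, SD, n = 2 arrays, limma adjusted p = 0.2205). COL17A1 had -0.98 and -0.75, and COL4A1 had -0.69 and -1.04. After normexp and loess these means were -0.17, -0.41 and -0.36, so their size depends on the processing, and the cause was not tested. COL4A2, the partner of COL4A1, had 0.15 and 0.31.

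The highest means with miR-204-5p among probes with both channels well above background were those of COL1A1, at 0.84 and 1.30, COL12A1 on A_23_P214168, at 0.54 and 0.75, and COL27A1 on A_23_P158096, at 0.32 and 0.69. None of these passed the test (limma adjusted p between 0.2205 and 0.2516). COL11A2 on A_23_P42322 had higher values, 1.59 and 1.74 (mean 1.66, limma adjusted p = 0.2205), but neither array had its mock channel well above background. It was at least 1.04-fold higher in transfected SW1990 cells and at least 1.01-fold higher in transfected MDA-MB-231 cells, and its mean after normexp and loess was 0.12. Single arrays added COL8A1 in SW1990 at -1.13, where MDA-MB-231 had 0.01 at a far higher mock level. COL13A1 was the lowest in MDA-MB-231 at -1.40 and stood at -0.02 in SW1990.

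COL4A1 was the chain that set the miR-204-5p arrays most apart. Its ratios on the other 6 arrays were 1.22, 1.15, 0.28, 0.15, 0.50 and 0.99, all above both miR-204-5p values. The difference of the means was -1.58 (limma, adjusted p = 0.142, unadjusted p = 0.000587), and after normexp and loess it was -0.79. Arrays of the same line were not averaged here or for si-PIR against the miRNA arrays, so these p-values treat them as independent. COL4A1 also had the highest difference of si-PIR against the miRNA arrays, at 1.16 (limma adjusted p = 0.638). The next was COL5A1 on A_33_P3629678 at 1.08, which had 1 channel only above background in SW1990. Among the other probes with both channels well above background on all 8 arrays, COL4A5 had 0.41 and 0.28 with miR-204-5p and COL18A1 had 0.04 and 0.38, with differences from the other arrays of 0.50 and 0.42. The differences were 0.24 for COL27A1 on A_23_P158096, -0.26 for COL11A2 on A_33_P3216442 and -0.19 for COL4A2. With 1 channel only above background on some arrays, the difference was 1.23 for COL11A2 on A_23_P42322 and -0.78 for COL5A1 on A_33_P3629678. Against the miRNA arrays, the si-PIR arrays further differed by 0.65 for COL13A1, 0.63 for COL1A1, -0.59 for COL9A3, -0.28 for COL27A1 on A_23_P158096 and -0.22 for COL16A1 on A_33_P3210647, none past the test. Such differences may come from the cell line or from the transfected RNA, which cannot be told apart.

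In PANC1 the 2 strands of miR-130 gave different collagen values against mock. COL1A1 was at 0.05 with miR-130-5p and 2.61 with miR-130-3p. COL21A1, a FACIT of vessel walls, was at -0.18 and 2.83, COL5A2 at -0.65 and 1.94, COL7A1 at -0.14 and 1.51, and COL12A1 on A_23_P214168 at -0.23 and 1.26. In each of these the miR-130-3p value was the higher, but the probes listed here are ones with high values on that array. Other probes went the other way, such as COL11A2 on A_23_P42322, at 0.96 with miR-130-5p and -0.45 with miR-130-3p. COL16A1 on A_33_P3210647 had 0.26 and -0.12. Each strand had 1 array. The mock channel of COL21A1 was above background on the miR-130-3p array alone, at 6.0. COL3A1 was well above background in the transfected channel of the miR-130-3p array and not in the mock channel, and was at least 1.22-fold higher there. After normexp and loess, COL1A1 kept 2.4 and COL5A2 1.9 with miR-130-3p, and COL21A1 had 1.1.

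COL13A1 was low on both PANC1 arrays, at -2.16 with miR-130-5p and -1.60 with miR-130-3p, the lowest collagen ratio of each among probes with both channels above background. COL8A2 on A_24_P365975 had -1.48 and -0.12. COL4A5 had -1.18 with miR-130-5p and 0.64 with miR-130-3p, and COL11A2 on A_23_P42322 was the highest with miR-130-5p at 0.96 among probes with both channels above background. In the transfected channel alone, COL20A1 and COL5A1 on A_33_P3383351 had larger values there, 1.48 and 1.46. Over all arrays COL13A1 was below 0 on 7 of 8, with -0.67 and -0.40 in SK-MES-1 and 0.05 with si-PIR-2. Its mean over the lines was -0.85 (limma adjusted p = 0.154).

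In SK-MES-1, which led the mock levels of 9 collagen probes, the ratios of these genes had no common direction. COL1A1 had 0.11 and -0.28, COL4A2 0.22 and 0.08, COL7A1 -0.22 and -0.15, and COL4A1 0.28 and 0.15 with miR-144-5p and miR-144-3p. COL24A1 had 0.59 and 0.61, COL5A1 0.69 and 0.39 on A_33_P3629678, and COL4A6 -0.39 and -0.10 on A_23_P217379. Among probes with both channels well above background, COL27A1 was the highest on both arrays, at 1.45 and 0.87 on A_33_P3413168 and at 1.07 and 0.87 on A_23_P158096, but at 0.27 and 0.09 on A_24_P363896. COL21A1 was the lowest of these probes on both, at -0.73 and -0.57. COL16A1, with the largest SK-MES-1 lead, had 0.43 and 0.45 on A_23_P160318.

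Averaged within lines first, COL1A1 had the highest mean over the 5 lines among probes with both channels well above background on all 8 arrays, at 0.95 (limma adjusted p = 0.0962), with 7 of 8 arrays above 0. COL12A1 on A_23_P214168 followed at 0.65 (adjusted p = 0.0751), also with 7 of 8 arrays above 0, the exception being miR-130-5p at -0.23. COL27A1 on A_23_P158096 had 0.36. With 1 channel only above background on some arrays, COL11A2 on A_23_P42322 had 0.93 and COL5A1 on A_33_P3629678 had 0.76 (adjusted p = 0.119 and 0.179). The lowest means with both channels were those of COL13A1, COL9A2 on A_23_P45786 (-0.11) and COL18A1 (-0.04).

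Genes that modify, secrete or crosslink collagen were followed as a list of 41 genes on the array. In mock cells 36 were well above background in PC3, 36 in SK-MES-1, 33 in SW1990, 34 in MDA-MB-231 and 29 in PANC1. In the 5 comparisons of ratios, 38, 33, 31, 31 and 31 of them could be tested and 0 passed in either direction. Their median ratio or difference was 0.01, 0.15, 0.07, -0.03 and 0.16, against 0.03, 0.04, 0.02, 0.00 and 0.02 for all probes.

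The list's widest means with si-PIR were those of ITGA1, a collagen receptor subunit, at -2.42 and -0.02, LOX, the lysyl oxidase that crosslinks fibrils, at 0.68 and 1.71, FKBP10, a collagen prolyl isomerase, at -0.31 and -1.99, and BMP1, the procollagen C-proteinase, at 1.36 and 0.92 on A_24_P129417. The siRNAs differed by over 1 for ITGA1, LOX and FKBP10. LOX was well above background in 1 channel only. The other BMP1 probe, A_33_P3234043, had the opposite sign with si-PIR-2, at -0.79 with 1 channel above background. With si-PIR-3 neither of its channels was well above background. With miR-204-5p the widest were MIA3 on A_24_P256692, which loads procollagen into transport carriers, at 1.64 and 1.36, PCOLCE2, a C-proteinase enhancer, at 1.02 and 0.74, the lysyl oxidase LOXL4, at -0.98 and -0.70, and TLL1, at 1.74 in SW1990 and -0.09 in MDA-MB-231 with 1 channel above background on each. The other 4 MIA3 probes lay between -0.28 and 0.55 on those arrays. Over the 5 lines COLGALT1, which adds galactose to collagen, had 0.54 on A_23_P209183, BMP1 0.52, MIA3 on A_24_P256692 0.50, and SERPINH1, the collagen chaperone HSP47, 0.44. The other COLGALT1 probe, A_33_P3245575, had 0.28. For si-PIR against the miRNA arrays the widest differences were those of ITGA1 (-2.10), LOX (1.07), BMP1 (0.82) and ITGA2 (-0.74), and for miR-204-5p against the others those of MIA3 (1.67), LOXL4 (-0.998), LOX (-0.77) and PCOLCE2 (0.76). Of these, ITGA1, LOX and BMP1 had 1 channel only above background on some arrays. For ITGA1 these included both PANC1 arrays, at 1.90 and 2.47. In the comparisons of si-PIR and of miR-204-5p with other arrays, cell line and transfected RNA cannot be told apart.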

How the data were processed

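Two-colour Agilent Human GE 60K arrays of 5 cell lines were analysed. The authors deposited the output of Agilent Feature Extraction 11.5.1.1 (version per the file headers), with the linear intensity of Cy3 and Cy5 for each spot and a background- and dye-corrected log10 ratio, Cy5 against Cy3. A deposited value table held the same log10 ratios (largest difference 0). Of 62976 spots per array, 60901 were not controls, and outlier spots were left out. Spots of a probe were averaged and every probe was kept.

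Ratios were multiplied to the log2 scale. Mock levels were computed from the Cy3 mean intensity with limma 3.58.1 in R 4.3.3 (normexp with an offset of 50, then quantile normalisation). A probe entered a test of ratios if at least 1 channel was well above background on every array of the comparison, so a probe low on 1 array can drop out. Means and differences were tested by lmFit and eBayes with Benjamini-Hochberg adjustment over all probes at 0.05, and mock levels by the F test over lines. Bounds set the brighter mean against, per array, the higher of the lowest signal well above background and the dim probe's own signal.

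The genes named were the probes with the 10 largest mock leads and 5 smallest ranges, the 3 highest and 3 lowest means of each comparison and the highest and lowest probe of each array (both among probes with both channels well above background), all COL5A1 probes, partner chains, and 4 processing genes per comparison. Other names were chosen after their values were seen. The members and lists were chosen with earlier results of these data known. The precision is limited by the number of arrays. Fits were tested on simulated data. Probe coordinates come from the hg19 annotation in the scanner files. Figures were drawn with matplotlib 3.10.9 in Python 3.11.15. Alternatives were other background corrections and normalisations, filters, the brightest probe of a gene, a shared spread and leaving out arrays.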

Additional observations from a re-analysis of the deposited data

Results flagged for a closer look

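COL4A1 had ratios above 0.5 on both si-PIR arrays (1.22 and 1.15) and below -0.5 on both miR-204-5p arrays (-0.69 and -1.04), with both channels well above background on all 4. The si-PIR mean exceeded the miR-204-5p mean by 2.05 on the log2 scale. The 2 treatments were given to different cell lines, and this difference was not tested.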

How the results depend on the processing

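The counts of 0 collagen calls for si-PIR, miR-204-5p and the mean over lines became 6, 10 and 18 with median centring after normexp, as given above. These were 6 of 38, 10 of 34 and 18 of 26 collagen probes. The shares of all probes called were larger, at 6101 of 29370, 13499 of 26650 and 17092 of 24109. The count for si-PIR against the miRNA arrays became 1 (higher) without the filter on dim probes, where 64 collagen probes were tested and 138 of all 58191 probes were called. Every other alternative run for these 5 comparisons gave 0, including the leave-one-out fits of the last 3, which ran from 0 to 0. Against mock, leaving out an array of si-PIR or of miR-204-5p leaves 1 array. With the spread shared over the other 7 arrays, a fit added after seeing the data that assumes the lone array to vary like the other groups, both counts ran from 0 to 0, with 9 probes at an unadjusted p under 0.05 without either si-PIR array and 4 without either miR-204-5p array. The 38 calls between mock lines became 18 of 20 where Cy3 had to be well above background on all 8 arrays, against 18777 of all 19878 probes. They were 36 to 38 with an array left out. The 11 mock leads became 23 with the processed signal and 6 with that filter. Probes past 1 numbered 3, 2, 1, 0, 0, 1, 1 and 4 after normexp and loess, and with both channels well above background they were 0 for miR-144-3p, 3 for miR-130-5p and 7 for miR-130-3p. Median centring turned the si-PIR means of COL9A3, COL13A1 and COL4A6 to 0.16, 0.48 and 0.20, and the means over lines of COL9A2 and COL18A1 to 0.12 and 0.72. The cause of these changes was not tested. The slide and scan block was not run, since all arrays share 1 slide and 1 scan. No paired analysis was possible because replicates of different groups share no number beyond the arrays themselves and each array already holds its own mock cells.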
